A study of Homo sapiens with 6 samples.

Results

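The genes described here are 45 genes of the G1/S transition and of DNA replication, chosen by name from the 20020 genes of the count table. All 45 were in the table, and all 45 had enough counts to be tested. They were measured by RNA-seq in HCT116 cells, a human colorectal carcinoma line. The group CAD-KO2+IR held 3 libraries of cells with a guide against CAD (caspase-activated DNase) in the lentiCRISPRv2 vector, and the group sgVec+IR held 3 libraries of vector control cells. Both groups were collected 24 h after 8 Gy of ionizing radiation (IR), so every library came from irradiated cells, and unirradiated cells were not analysed here. A single knockout line was sequenced. The study's text is the source for the dose, the time and the line, and the sample titles mark the irradiation. Nothing in the labels says whether the replicates were separate cultures, so the p-values measure the spread between these libraries, which may be technical.

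A cell enters S phase when cyclin E with CDK2 phosphorylates the retinoblastoma protein family and frees E2F transcription factors, which switch on the genes of replication. In G1 the origin recognition complex, CDC6 and CDT1 load the ring of MCM2 to MCM7 onto DNA, and geminin blocks CDT1 once S phase has begun. CDC45 and the GINS complex then turn the loaded ring into the active helicase, polymerases copy the strands while held by the PCNA clamp, and Claspin and Tipin link a stalled fork to the checkpoint kinase CHK1. DNA damage from radiation slows both the entry into S phase and the firing of origins. In bulk RNA, fewer cells in S phase and less mRNA per cell cannot be told apart.

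Many of these genes shared a short promoter sequence. In RefSeq promoters (GRCh38.p14, from 250 bases before to 50 after the start of each gene), 40 of the 45 genes were matched, and 22 of them (55.0%) held a match to TTTCCCGC, TTTCGCGC, TTTGCCGC or TTTGGCGC on either strand, letters that are a common form of the E2F motif. Of all 15397 promoters of counted genes, 692 (4.49%) held one. A list of other replication genes had one in 8 of 48 promoters (16.7%), and a list of G2/M genes in 3 of 20. The 45 genes were picked as replication and E2F genes, so their share is a description and not a test. A match is not a bound site. The 30-base windows that follow show the first match in 8 of the genes that recur below. Windows run 5′ to 3′ on the strand of the gene, with matches in capitals. E2F1 and MCM6 held 2 and 4 matches, and not all of these lie in the windows.
E2F1 (chr20:33686400-33686429, minus strand): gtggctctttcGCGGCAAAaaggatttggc
CDC6 (chr17:40287875-40287904, plus strand): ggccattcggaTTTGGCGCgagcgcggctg
CDT1 (chr16:88803743-88803772, plus strand): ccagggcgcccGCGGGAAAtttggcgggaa
MCM2 (chr3:127598402-127598431, plus strand): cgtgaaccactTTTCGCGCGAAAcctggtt
MCM6 (chr2:135876577-135876606, minus strand): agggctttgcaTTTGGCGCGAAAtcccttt
PCNA (chr20:5126663-5126692, minus strand): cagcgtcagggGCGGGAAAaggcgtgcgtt
RFC3 (chr13:33818083-33818112, plus strand): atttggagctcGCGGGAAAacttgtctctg
CLSPN (chr1:35769965-35769994, minus strand): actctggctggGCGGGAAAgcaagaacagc

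In MCM2 and MCM6 the capitals hold a pair of overlapping matches, one on each strand. Of the 40 promoters, 22 (55.0%) held CCAAT on either strand, against 36.6% of all promoters. CCAAT was not particular to these genes. It was in 16 of 20 promoters (80.0%) of the G2/M list and in 23 of 48 (47.9%) of the other replication genes. TTTGAA, the CHR element of genes switched on in G2 and mitosis, was in 0 of the 40 against 12.1% of all promoters. It was in 13 of 20 promoters (65.0%) of the G2/M list. CCNE1, ORC1, CDC45 and POLD1 held none of the 4 E2F forms in this window, which says nothing more than that these letters were absent from it.

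None of these genes passed the test between the groups. A gene was called where it changed at least 1.5-fold and its adjusted p was under 0.05 (edgeR, quasi-likelihood, Benjamini-Hochberg over the tested genes). No gene of the 45 was called, where 4 of the 12925 tested genes (0.0309%) were, and in DESeq2 the numbers were 0 of 45 and 41 of 16728 (0.245%). The adjusted p in edgeR was 0.9999 for each of the 45. At an unadjusted p under 0.05 there were 0 of 45, against 2.85% of all tested genes, and the smallest unadjusted p was 0.0644, for CLSPN. The log2 fold change of CAD-KO2+IR over sgVec+IR was above 0 for 24 genes and below 0 for 21, against 48.1% above 0 over all tested genes. Its median was 0.01, against −0.01 over all tested genes, and it ran from −0.32 (PRIM1) to 0.58 (POLA2).

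The intervals say how large a difference the fit with all 6 libraries left possible. The 95% interval of the log2 fold change lay within a 1.5-fold change in either direction for 17 of the 45 genes. For 28 genes it reached past 1.5-fold, and for 6 of these past 2-fold. The interval was narrowest for MCM4, a helicase subunit, from −0.27 to 0.33, and widest for CDT1, a licensing factor, from −1.16 to 1.08. The standard errors of these genes (median 0.215) were smaller than those of all tested genes (median 0.291). For genes such as CDT1, E2F1, POLD1 and RFC3 the interval of this fit took in a 1.5-fold change in either direction.

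**Figure D1:**
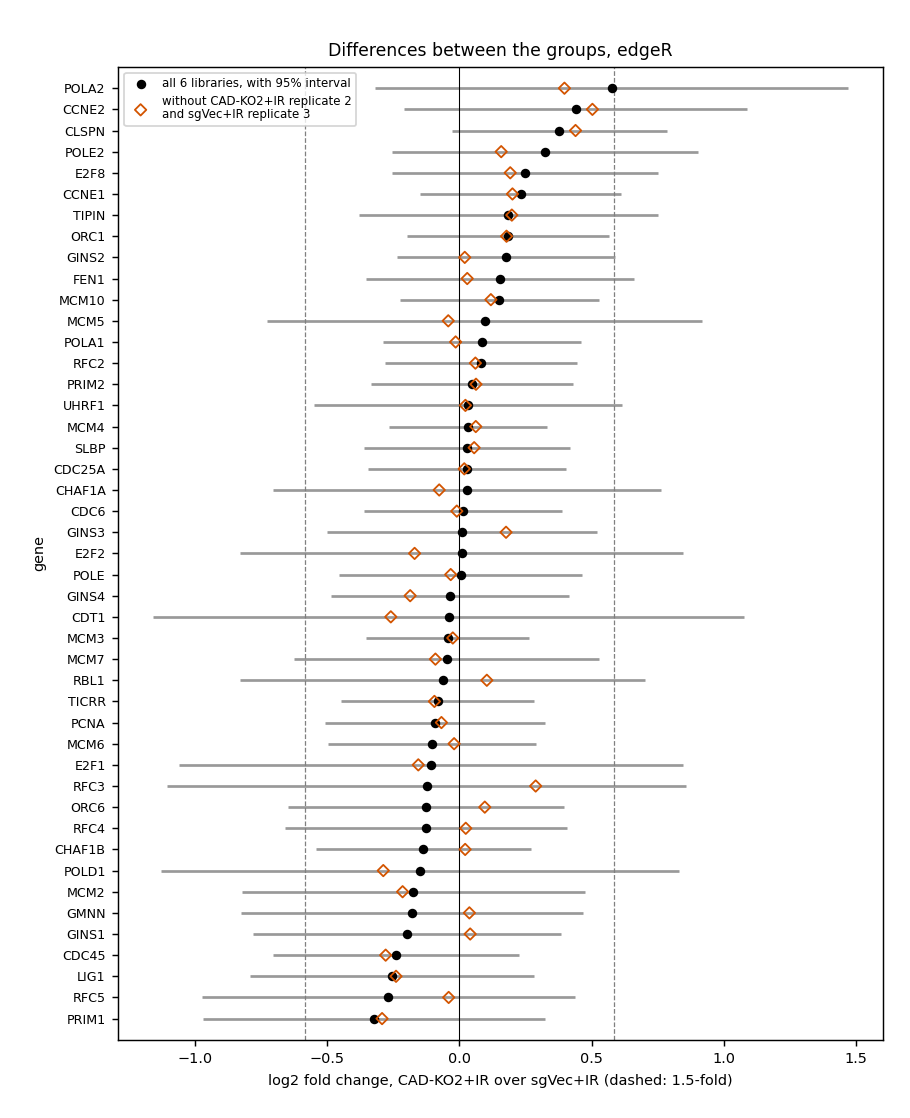
Log2 fold change of CAD-KO2+IR over sgVec+IR (x axis) for each of the 45 genes (y axis, sorted). Black points with grey bars are the edgeR estimates with 95% intervals from all 6 libraries, open diamonds are the estimates without CAD-KO2+IR replicate 2 and sgVec+IR replicate 3, and dashed lines mark a 1.5-fold change. Every grey bar crosses 0, and 28 of the 45 bars cross a dashed line.

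The libraries within a group were not equally alike. Total counts ran from 14032994 to 19574144. In sgVec+IR replicate 3, 7561 genes had a count of 0, against 4577 to 5232 in the other libraries, and in CAD-KO2+IR replicate 2 mitochondrial genes took 8.73% of the counts, against 6.33% to 6.82%. Over the 45 genes, log2 CPM (counts per 1e+06 counts, scaled by TMM) of sgVec+IR replicates 1 and 2 had a Pearson's r of 0.997, whereas replicate 3 had 0.873 and 0.870 with them. CAD-KO2+IR replicates 1 and 3 had an r of 0.995, and replicate 2 had 0.952 and 0.961 with them. CAD-KO2+IR replicate 2 and sgVec+IR replicate 3, which come from different groups, had an r of 0.962. The targeted gene DFFB, which encodes CAD, had 10.03, 10.1 and 12.4 CPM in CAD-KO2+IR and 21.8, 22.9 and 20.9 CPM in sgVec+IR (log2 fold change −1.02, standard error 0.193, adjusted p = 0.550, edgeR). It was not called in that fit. DESeq2 called it (−1.01, adjusted p = 0.00169), as did limma with each library weighted by its quality (−0.92, adjusted p = 0.000135). So did edgeR without CAD-KO2+IR replicate 2 and sgVec+IR replicate 3 (−0.996, adjusted p = 1.64e-07). The limma weights were lowest for the same libraries. No other alternative fit called DFFB. In edgeR its adjusted p was 0.0549 after a correction for GC content and 0.108 to 0.9999 with 1 library left out. The 5 epithelial markers had at least 63.9 CPM in every library, and PTPRC, CD3E, PECAM1 and ALB had at most 0.753 CPM, whereas the fibroblast collagen gene COL1A1 had 10.9 to 47.8 CPM, lowest in sgVec+IR replicate 3. The part of these differences between libraries, and of other cell types, in the values that follow was not tested.

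Per length of exon, PCNA, the sliding clamp, stood far above the rest at a mean of 309 RPKM (CPM per kilobase). MCM3 and MCM7 followed at 97.6 and 94.4 RPKM, then SLBP, which binds the stem-loop of histone mRNA, at 69.7 RPKM, and MCM4 at 59.6 RPKM. At the other end were POLA2, the accessory subunit of polymerase alpha, at 0.976 RPKM and CCNE2, a cyclin E, at 1.73 RPKM. Exons of other counted genes cover 35.1% of the exon length of POLA2 and 37.0% of that of CCNE2. The part of this overlap in their low levels was not tested. By level the genes ran from percentile 16.5 to percentile 99.6 of the tested genes, with a median of 76.9. The smallest count of any of them in any library was 32, and the largest was 9666.

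**Figure D2:**
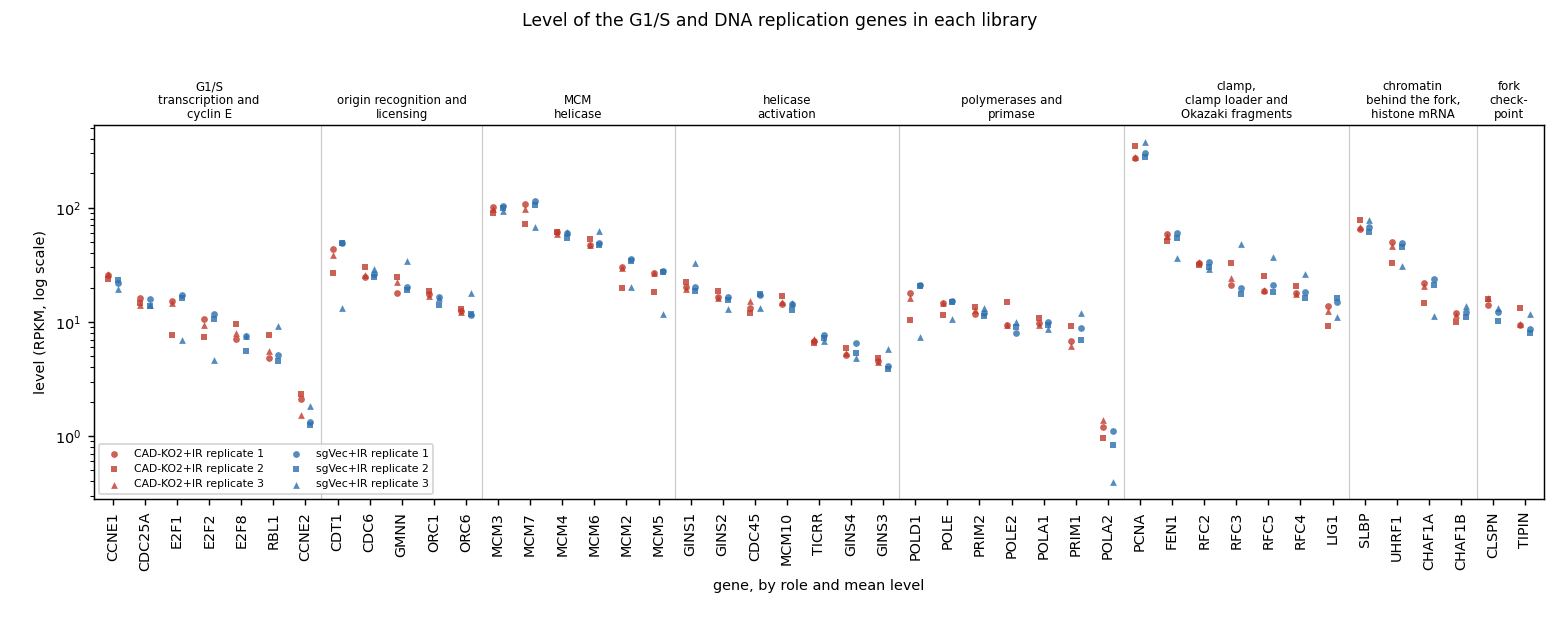
Level of each of the 45 genes in each of the 6 libraries, in RPKM on a log scale (y axis), with genes grouped by role and sorted by mean level (x axis). Red marks are the CAD-KO2+IR libraries and blue marks the sgVec+IR libraries. PCNA is the highest at a mean of 309 RPKM and POLA2 the lowest at 0.976 RPKM, and the blue triangles of sgVec+IR replicate 3 lie far from the other blue marks for genes such as CDT1, MCM5 and RFC3.

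Claspin had the smallest p of the 45 genes. CLSPN (ENSG00000092853.14, minus strand of chromosome 1, 35720218 to 35769967 on GRCh38), the adaptor through which ATR activates CHK1 at stalled forks, had 76.2, 86.3 and 87.6 CPM in CAD-KO2+IR and 65.8, 55.0 and 71.6 CPM in sgVec+IR. Each CAD-KO2+IR library was above each sgVec+IR library, at 83.4 ± 6.24 against 64.1 ± 8.40 CPM (SD, n = 3 each). The log2 fold change was 0.38 (standard error 0.172, 95% interval −0.03 to 0.79), and the gene was not called (unadjusted p = 0.0644, adjusted p = 0.9999, edgeR). The adjusted p ran from 0.00010 to 0.9999 over the 15 alternative fits. TIPIN, the partner of Timeless in the fork protection complex, had a log2 fold change of 0.19 and overlapping groups.

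Of the other genes, CCNE1 and ORC1 had groups that did not overlap. Thus 3 of the 45 genes were higher in each CAD-KO2+IR library than in any sgVec+IR library and 0 were lower, against 5.23% and 5.01% of all tested genes, so the number was near that of genes in general. CCNE1 (ENSG00000105173.14, plus strand of chromosome 19, 29811898 to 29824308), the cyclin that activates CDK2 at the start of S phase, had 65.0, 61.2 and 67.4 CPM in CAD-KO2+IR and 56.2, 59.5 and 49.2 CPM in sgVec+IR (log2 fold change 0.23, standard error 0.161, unadjusted p = 0.195). ORC1 (ENSG00000085840.13, minus strand of chromosome 1, 52372829 to 52404459), the largest subunit of the origin recognition complex, had 55.1, 58.7 and 53.2 CPM against 51.8, 44.0 and 51.2 CPM (log2 fold change 0.18, standard error 0.162, unadjusted p = 0.293). Neither gene passed the test, and the gap between the nearest libraries of the groups was under 2 CPM for both.

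The other genes of G1/S transcription overlapped between the groups. CCNE2, the second E-type cyclin, had 9.32, 10.2 and 6.78 CPM in CAD-KO2+IR and 5.87, 5.54 and 8.04 CPM in sgVec+IR (log2 fold change 0.44, standard error 0.274, unadjusted p = 0.153). Exons of other counted genes, among them INTS8, cover 37.0% of its exon length, and the strand setting of the counting is not given in the sources used here, so reads of the overlapping genes cannot be told apart. E2F1, the activator of many replication genes, had 38.2, 19.3 and 36.4 CPM in CAD-KO2+IR and 42.9, 40.5 and 17.4 CPM in sgVec+IR. The low values were CAD-KO2+IR replicate 2 and sgVec+IR replicate 3, and the log2 fold change was −0.11 (standard error 0.403). The log2 fold changes of the activator E2F2, the repressor E2F8, the pocket protein RBL1 and the phosphatase CDC25A, which removes the inhibitory phosphates of CDK2, were 0.01, 0.25, −0.06 and 0.03. The median over the 7 genes was 0.03.

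For origin licensing, the median log2 fold change over 5 genes was −0.04. CDC6, the ATPase that loads the MCM ring, had 138, 169.5 and 144 CPM in CAD-KO2+IR and 147, 138 and 162 CPM in sgVec+IR (log2 fold change 0.02, standard error 0.158). The values of the groups lay over each other. CDT1, which brings the MCM ring to the origin, had 144, 89.2 and 128 CPM in CAD-KO2+IR and 164, 163 and 44.4 CPM in sgVec+IR. With sgVec+IR replicate 3 this gave a log2 fold change of −0.04 (standard error 0.472), and without that library −0.44. GMNN, which encodes geminin, and ORC6, the smallest subunit of the origin recognition complex, had log2 fold changes of −0.18 and −0.13.

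The 6 subunits of the MCM helicase form a ring in equal amounts, and 2 of the 6 mRNAs had a log2 fold change above 0 (median −0.05). MCM3 had 367, 326 and 359 CPM in CAD-KO2+IR and 381, 361 and 344 CPM in sgVec+IR, and MCM4 had 425, 425 and 409.6 CPM against 421, 381 and 431 CPM. Their log2 fold changes were −0.04 (standard error 0.131) and 0.03 (standard error 0.126), and both 95% intervals lay within 1.5-fold. The same held for MCM6, with 193, 218 and 193 CPM against 200.1, 193 and 256 CPM (log2 fold change −0.10, standard error 0.167).

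The other 3 subunits varied more within the groups. MCM2 had 149, 97.4 and 145 CPM in CAD-KO2+IR and 175, 167 and 99.1 CPM in sgVec+IR (log2 fold change −0.17, standard error 0.275), and the log2 fold change was −0.39 without sgVec+IR replicate 3 and −0.00048 without CAD-KO2+IR replicate 2. MCM5 had 197, 133 and 196 CPM against 206, 199 and 85.97 CPM (0.10, standard error 0.348), and MCM7 had 472, 318 and 430.5 CPM against 498, 466 and 298 CPM (−0.05, standard error 0.244). In all 3 the lowest library of each group was again CAD-KO2+IR replicate 2 and sgVec+IR replicate 3.

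Among the 7 genes that activate the helicase, the median was −0.03. CDC45, which joins the ring to make the active helicase, had 37.8, 34.3 and 43.4 CPM in CAD-KO2+IR and 48.7, 50.04 and 37.4 CPM in sgVec+IR (log2 fold change −0.24, standard error 0.196, unadjusted p = 0.261). It was lower in CAD-KO2+IR than in sgVec+IR replicates 1 and 2 in each library, while sgVec+IR replicate 3 lay among the CAD-KO2+IR values. The GINS subunits GINS1 to GINS4 had log2 fold changes of −0.20, 0.18, 0.01 and −0.03. MCM10, which helps to activate the assembled helicase, had a log2 fold change of 0.15, and TICRR (Treslin), which brings CDC45 to origins, one of −0.08.

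The polymerase and primase genes held both ends of the range. POLA2 had 6.83, 5.48 and 7.86 CPM in CAD-KO2+IR and 6.30, 4.79 and 2.26 CPM in sgVec+IR (log2 fold change 0.58, 95% interval −0.32 to 1.47). PRIM1, the catalytic primase subunit, had 16.5, 22.5 and 15.1 CPM against 21.6, 17.0 and 29.1 CPM (−0.32, 95% interval −0.97 to 0.32). The groups overlapped in both genes, and other counted genes cover 35.1% of the exon length of POLA2 and 21.6% of that of PRIM1. POLE2, the second subunit of polymerase epsilon, had a log2 fold change of 0.32, and the catalytic subunits POLA1 and POLE of polymerases alpha and epsilon had log2 fold changes of 0.09 and 0.00. POLD1, the catalytic subunit of polymerase delta, had 87.9, 50.9 and 80.1 CPM against 105, 101 and 36.5 CPM (log2 fold change −0.15, standard error 0.414), lowest in CAD-KO2+IR replicate 2 and sgVec+IR replicate 3 within their groups. The groups overlapped, and another counted gene covers 8.64% of its exon length. PRIM2, the large primase subunit, had a log2 fold change of 0.05.

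For the clamp, its loader and the joining of Okazaki fragments, 5 of 7 genes had a log2 fold change below 0 (median −0.12). PCNA had 400.5, 509.6 and 409 CPM in CAD-KO2+IR and 442, 409.6 and 556 CPM in sgVec+IR (log2 fold change −0.09, standard error 0.176). Named pseudogenes of PCNA (3), RFC3 (1), RFC5 (1) and FEN1 (1) exist, so their counts may be split or shared. RFC3, a clamp loader subunit, had 60.0, 94.5 and 69.8 CPM against 56.4, 49.97 and 139 CPM (−0.12, standard error 0.415), and the highest libraries were CAD-KO2+IR replicate 2 and sgVec+IR replicate 3. The other loader subunits RFC2, RFC4 and RFC5 had log2 fold changes of 0.08, −0.13 and −0.27, and the flap nuclease FEN1 had one of 0.15. LIG1, the ligase that joins Okazaki fragments, had 90.9, 60.6 and 81.7 CPM against 97.9, 107 and 73.2 CPM (log2 fold change −0.25, standard error 0.227), and the groups overlapped.

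The 4 genes that act behind the fork had a median of 0.03. CHAF1A and CHAF1B, subunits of the histone chaperone CAF-1, had log2 fold changes of 0.03 and −0.14. UHRF1, which brings the maintenance DNA methyltransferase to newly copied DNA, and SLBP both had a log2 fold change of 0.03.

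Within each group, the spread of these genes followed their GC content. Taking the longest coding transcript in GENCODE release 29, GC content ran from 36.9% (CCNE2) to 65.0% (POLD1). The log2 ratio of sgVec+IR replicate 3 to the mean of replicates 1 and 2 fell with GC content, with Pearson's r = −0.895 over the 45 genes and −0.703 over the 12078 tested genes that had a GC value and counts from which both libraries' ratios could be taken. For CAD-KO2+IR replicate 2 against replicates 1 and 3, r was −0.912 over the 45 genes and −0.792 over all. These are correlations across genes that share the same libraries, so they are descriptions. Without the 2 genes farthest from the median GC content, r for sgVec+IR replicate 3 was −0.865.

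The shift was large beside the difference between the groups. Of the 21 genes with over 50% GC, 19 were lower in sgVec+IR replicate 3 (median log2 ratio −0.63), and of the 24 genes with less, 3 were (median 0.38). The lowest were CDT1 at −1.88 and POLD1 at −1.50, and the highest were RFC3 at 1.38 and RBL1 at 0.93. In CAD-KO2+IR replicate 2 the medians were −0.42 and 0.22. Over all tested genes with these values, the same split gave medians of −0.83 and 0.51 in sgVec+IR replicate 3 and −0.46 and 0.31 in CAD-KO2+IR replicate 2. In sgVec+IR replicate 3, 4822 of 5597 and 1329 of 6481 of all these genes were lower, so the shift was not particular to the 45. Of the 45 genes, 41 lay on the same side in both libraries, against 81.5% of all genes. For 40 of them the deviation of sgVec+IR replicate 3 was larger in size than the log2 fold change between the groups. A ratio of 1 library varies more than a difference of group means, and the share of all genes was not counted. Over 1.5-fold deviations of sgVec+IR replicate 3 were seen in 8 genes upward and 11 downward, against 24.5% and 36.2% of all genes. For CAD-KO2+IR replicate 2 there were 1 and 4, against 6.79% and 19.8%. The fits that follow either leave out these libraries, which also removes whatever else sets them apart, or correct every library for its trend with GC content.

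Without sgVec+IR replicate 3, 27 of the 45 genes had a log2 fold change above 0 (median 0.05), against 48.7% of all genes, and 0 were called, against 22 genes (0.167%) overall. At an unadjusted p under 0.05 there were 3 higher, against 5.18% of all genes, and 0 lower, against 6.67%. These were CLSPN (log2 fold change 0.47, unadjusted p = 0.0156), CCNE2 (0.62, unadjusted p = 0.0348) and RFC3 (0.49, unadjusted p = 0.0486). The groups did not overlap for 9 genes higher and 10 lower, against 21.9% and 23.6% of all genes. In this fit, which still held CAD-KO2+IR replicate 2, the log2 fold change fell with GC content (r = −0.792 over the 45 genes), against −0.0837 with all 6 libraries. CCNE2 and RFC3 are the genes with the lowest GC content of the 45.

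Without both libraries, 25 of the 45 genes had a log2 fold change above 0, against 49.6% of all genes. At an unadjusted p under 0.05 there were 5 higher and 7 lower, against 14.6% and 15.1%, and the groups did not overlap for 11 genes each way, against 28.5% and 28.8%. An adjusted p under 0.05 in edgeR was reached by 7 of the 45. This fit compares 2 libraries with 2 that were kept because they were alike, which narrows the spread it is tested against. Higher in CAD-KO2+IR were CLSPN (log2 fold change 0.44, adjusted p = 0.00010) and RFC3 (0.29, adjusted p = 0.0137), which is 2 genes of 45 against 7.99% of all genes. Lower were POLD1 (−0.29, adjusted p = 0.00318), CDT1 (−0.26, adjusted p = 0.00355), MCM2 (−0.21, adjusted p = 0.0125), LIG1 (−0.24, adjusted p = 0.0168) and CDC45 (−0.28, adjusted p = 0.0252), which is 5 of 45 against 8.25%. No gene of the 45 reached 1.5-fold, while 440 genes (3.37%) did so and were called. The log2 fold change still fell with GC content (r = −0.517 over the 45 genes, −0.292 over all), and CDT1 and POLD1 are the genes with the highest GC content. With all 6 libraries weighted by their quality in limma, 0 of the 45 were called, against 5.15% of all genes. The weights were 0.0404 for sgVec+IR replicate 3 and 0.154 for CAD-KO2+IR replicate 2, against 1.79 to 6.75 for the other libraries. The weighted fit thus rests mostly on the libraries kept in the fit without both, and is not a separate check of it. In that fit CLSPN, RFC3 and CCNE1 were higher at an adjusted p under 0.05, against 10.5% of all genes, and LIG1, POLD1, CDT1, MCM2 and CDC45 were lower, against 11.8%. At an unadjusted p the numbers were 7 and 8 of 45, against 18% and 19.1%.

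After a correction of each library for its trend with GC content, with all 6 libraries kept, 0 of the 45 genes were called, against 41 genes (0.317%) overall. Of the 45, 2 were higher at an unadjusted p under 0.05, against 5.18% of all genes, and 3 were lower, against 5.37%. The higher ones were CLSPN (log2 fold change 0.37, unadjusted p = 0.00699, adjusted p = 0.281) and CCNE1 (0.21, unadjusted p = 0.0494). The lower ones were LIG1 (−0.29, unadjusted p = 0.0233), MCM2 (−0.19, unadjusted p = 0.0387) and CDC45 (−0.25, unadjusted p = 0.0495). CDT1 turned to 0.08, POLD1 was −0.10 and RFC3 was −0.02, each far from the threshold. Over the fits with all libraries, without sgVec+IR replicate 3, without both libraries and with the correction, 15 genes had a log2 fold change above 0 in all 4 fits and 10 below 0 in all 4, and the sign of the other 20 changed. These fits share libraries, so a sign kept across them is not a separate check. The same share over all genes was not counted.

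Of the 22 genes with a match to the E2F letters, 11 had a log2 fold change above 0 (median −0.02), of the 18 without one, 9 had (median −0.03), and of the 5 with no promoter entry, 4 had (median 0.10). Without both libraries the medians were −0.012, 0.034 and 0.062. The difference between these sets was not tested.

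Of a list of 61 other genes of the same pathway, 58 were tested. A log2 fold change above 0 was seen in 36 of these (median 0.03), against 48.1% of all tested genes. At an unadjusted p under 0.05 there was 1, higher in CAD-KO2+IR, against 1.08% of all genes, and it was CCND1. This gene (plus strand of chromosome 11, 69641087 to 69654474) encodes cyclin D1, which activates CDK4 and CDK6 in G1. It had 1067, 1016 and 1103 CPM in CAD-KO2+IR and 780.5, 764 and 907 CPM in sgVec+IR, so the groups did not overlap, at 1062 ± 43.7 against 817 ± 78.1 CPM (SD, n = 3 each). The log2 fold change was 0.38 (standard error 0.126, unadjusted p = 0.0199, adjusted p = 0.9999, edgeR), and it was 0.46 without sgVec+IR replicate 3 (adjusted p = 0.228) and 0.35 after the GC correction (adjusted p = 0.358). Without both libraries it was 0.50 (adjusted p = 5.20e-11, edgeR) and with sample weights 0.50 (adjusted p = 1.28e-05, limma). The adjusted p passed 0.05 in these fits while the change stayed under 1.5-fold. In the same fits 7.99% and 10.5% of all genes were higher at that threshold. Both fits rest mostly on the same libraries, kept because they were alike, so they are not separate checks.

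CDKN1A (plus strand of chromosome 6, 36676460 to 36687339) encodes p21, the p53-induced inhibitor of the cyclin E kinase. It had 1216, 764 and 1109 CPM in CAD-KO2+IR and 1549, 1625 and 847 CPM in sgVec+IR. The groups overlapped, because sgVec+IR replicate 3 was below CAD-KO2+IR replicates 1 and 3. The log2 fold change was −0.38 (standard error 0.286, unadjusted p = 0.226), −0.62 without that library (unadjusted p = 0.00963, adjusted p = 0.371, edgeR) and −0.38 after the GC correction (unadjusted p = 0.000815, adjusted p = 0.113). It was −0.44 without both libraries (adjusted p = 1.45e-09, edgeR) and −0.49 with sample weights (adjusted p = 0.000335, limma), where the adjusted p passed 0.05 and the change stayed under 1.5-fold. In these fits, which rest mostly on the same libraries, 8.25% and 11.8% of all genes were lower at that threshold. The log2 fold change of CDKN1A shrank to −0.20 without CAD-KO2+IR replicate 2 and to −0.21 without sgVec+IR replicate 2.

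RB1, the retinoblastoma gene, had 81.6, 128 and 96.4 CPM in CAD-KO2+IR and 84.7, 84.6 and 171 CPM in sgVec+IR. Its log2 fold change was −0.15 (unadjusted p = 0.654) with all libraries and 0.27 without sgVec+IR replicate 3, the highest library. The S-phase cyclin CCNA2 had 122, 168 and 133 CPM against 129, 112 and 166 CPM (log2 fold change 0.06, unadjusted p = 0.789). The kinase CDK2 had 60.9, 64.3 and 57.7 CPM against 55.5, 61.1 and 71.2 CPM (log2 fold change −0.04, unadjusted p = 0.826). The groups overlapped in all 3 genes.

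In the list of other replication genes the balance of signs depended on which library was left out. Of 59 tested genes, 41 were above 0 (median 0.19) without sgVec+IR replicate 3, 27 (median −0.0073) without CAD-KO2+IR replicate 2 and 46 (median 0.10) without both. For the 45 replication genes the medians of the same fits were 0.05, 0.02 and 0.02, and over all tested genes −0.011, −0.0075 and −0.0022. Of the 12 origin and helicase genes of the list, 8 were above 0 with all 6 libraries, 11 without sgVec+IR replicate 3, 4 without CAD-KO2+IR replicate 2 and 12 without both, whereas of its 7 genes of chromatin and fork protection 2 were with all libraries and 3 without both. The difference between the lists was not tested. CCND2, CHTF8 and RNASEH2A had too few counts for the test. Exons of other counted genes cover 13.8%, 12.9% and 30.8% of their exon lengths, and the part of this overlap in the low counts was not tested.

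The G2/M genes, the nearest other group of cell-cycle genes, gave no call either. Of 23 tested, 13 were above 0, against 48.1% of all tested genes, with a median log2 fold change of 0.01. At an unadjusted p under 0.05 there were 0, against 2.85% of all tested genes. The groups did not overlap for 1 gene higher and 0 lower, against 5.23% and 5.01%. The 3 with the smallest p-values follow. MKI67, the Ki-67 gene, had 722, 828 and 742 CPM in CAD-KO2+IR and 716, 672 and 581 CPM in sgVec+IR (log2 fold change 0.22, unadjusted p = 0.155), and its groups did not overlap. The mitotic cyclin CCNB2 had 61.7, 77.2 and 60.7 CPM against 73.4, 71.8 and 84.98 CPM (−0.20, unadjusted p = 0.284). The topoisomerase TOP2A had 314, 415 and 319 CPM against 337, 326 and 647 CPM (−0.32, unadjusted p = 0.309), highest in sgVec+IR replicate 3. The groups overlapped in CCNB2 and TOP2A.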

How the data were processed

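RNA-seq was analysed in 6 HCT116 libraries, 3 per group, with samples grouped by their titles. The authors cleaned reads with fastp and deposited raw counts per gene made with featureCounts. The aligner, annotation and strand setting are not given in the sources used here. The labels name the mouse build mm10, although the gene identifiers are human Ensembl ones, and list the molecule as genomic DNA, although the protocol describes RNA. Rows were used as deposited.

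Genes were filtered with filterByExpr (minimum count 10, minimum total 15), which left 12925 of 20020. In R 4.3.3, edgeR 4.0.16 fitted the quasi-likelihood model (legacy set to FALSE) with TMM scaling, and p-values were adjusted by Benjamini-Hochberg over the tested genes. CPM use TMM-scaled library sizes, and RPKM divide them by exon length in GENCODE release 29 on GRCh38 (19823 of 20020 identifiers matched, ignoring versions). Counts cover 14032994 to 19574144 per library. No pair of libraries agreed within counting noise. The scripts were tested on simulated data.

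The alternatives were DESeq2 1.42.0 (the study's tool), limma 3.58.1 with sample weights, other normalization, filter and dispersion settings, a replicate block, and each library left out. At the same thresholds, the study reported many more changed genes with DESeq2 than DESeq2 called here. The cause of that difference was not tested. Leaving out both libraries that stand apart and the GC correction (lowess, span 0.3), alone or with the block, were added after seeing the data. The 45 genes, the lists and the tests were chosen with earlier results of these data known. The rule for giving per-library values covered those of the 45 genes with a p under 0.05 or with groups that do not overlap, MCM2 to MCM7, PCNA, CDC6, CDT1, CDC45, CCNE1, CCNE2, E2F1, 5 named regulators (CDKN1A, CCND1, CCNA2, CDK2 and RB1), up to 3 G2/M genes and DFFB. POLA2, PRIM1, POLD1, RFC3 and LIG1 were chosen after their values were seen. Sequences came from RefSeq (GRCh38.p14), with no entry for E2F8, CCNE2, MCM4, MCM5 and GINS4.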

Additional observations from a re-analysis of the deposited data

How the results depend on the processing

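In none of 15 alternative fits was a replication gene called. Over 504 alternative values, 446 kept their direction and their side of the threshold. The number of all genes called was 4 with all libraries, 41 in DESeq2, 666 with sample weights, 440 without both libraries that stand apart, 41 with the GC correction, and 0 to 22 with 1 library left out. Replication genes at an unadjusted p under 0.05 numbered 0 with all libraries, against 2.85% of all genes. Sample weights gave 15 (7 higher and 8 lower, against 18% and 19.1% of all genes). Without both libraries there were 12, against 29.7%, and with the GC correction 5, against 10.5%. There were 3 without sgVec+IR replicate 3, against 11.9%. Each other fit with 1 library left out had 0, against 1.22% to 2.17%. Genes whose groups do not overlap numbered 3 with all libraries and 22 without both libraries (11 each way, against 28.5% and 28.8% of all genes). They numbered 4 to 19 with 1 library left out. The 19 were without sgVec+IR replicate 3 (9 higher and 10 lower, against 21.9% and 23.6% of all genes). For the other fits with 1 library left out, the share of all genes was not counted. With 1 library left out, the median log2 fold change ran from −0.012 to 0.092 for the replication genes and from −0.0084 to 0.19 for the other replication genes. With smaller groups, groups fail to overlap more easily. The cause of the other changes was not tested.

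Between libraries of the same replicate number, the correlations of the deviations from the group means were 0.468, −0.545 and −0.379. The highest, 0.552, was between CAD-KO2+IR replicate 2 and sgVec+IR replicate 3. These libraries stand apart and carry different replicate numbers, so the correlations cannot show whether the numbers pair the samples. A replicate block called 0 genes and left 0 replication genes at an unadjusted p under 0.05, against 1.13% of all genes. With the GC correction the block left 2, against 6.98% of all genes. The block alone turned CDT1 to 0.13, and with the GC correction CDT1 was 0.094, against 0.082 with the correction alone. With sample weights MCM5 turned to −0.054, CDK2 to 0.0069 and RB1 to 0.14. Without both libraries MCM5 turned to −0.042, CDC6 to −0.0098, CDK2 to 0.031 and RB1 to 0.076.

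With 1 library left out, the log2 fold change ran from −0.078 to 0.0053 for MCM3, from −0.24 to 0.10 for MCM7, from −0.079 to 0.091 for CDC6, from −0.44 to 0.22 for CDT1, from −0.41 to 0.15 for E2F1, from −0.089 to 0.23 for CCNA2, from −0.12 to 0.065 for CDK2, from −0.013 to 0.068 for MCM4, from −0.21 to 0.30 for MCM5, from −0.17 to 0.037 for MCM6, from −0.21 to 0.048 for PCNA, from −0.35 to 0.27 for RB1, from −0.39 to −0.00048 for MCM2 and from −0.49 to 0.076 for TOP2A. Of 360 single-gene values, 32 changed sign.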

Other observations

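Among the other replication genes, MCM9, which encodes a helicase paralog of the MCM ring subunits, had 15.5, 18.7 and 14.8 CPM in CAD-KO2+IR and 11.7, 11.7 and 13.05 CPM in sgVec+IR. The gene was chosen after its values were seen. Each CAD-KO2+IR library was above each sgVec+IR library, and the log2 fold change was 0.43 (standard error 0.200), with an unadjusted p of 0.0703 and an adjusted p of 0.9999 in edgeR. The adjusted p ran from 0.0228 to 0.9999 over the alternative fits. Exons of ASF1A, a histone chaperone gene, overlap those of MCM9. The groups also did not overlap for CCND1 and for TOP1, a topoisomerase gene with 362, 405 and 362 CPM in CAD-KO2+IR and 349, 337 and 359 CPM in sgVec+IR (log2 fold change 0.11), so 3 of the tested genes of that list were higher in each CAD-KO2+IR library and 0 were lower, against 5.23% and 5.01% of all tested genes.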
